A study of Mus musculus with 8 samples.

Results

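The 3 D-type cyclins (Ccnd1, Ccnd2 and Ccnd3), the kinases that pair with them (Cdk4 and Cdk6) and the retinoblastoma protein that they phosphorylate (Rb1) were followed across 3 Nras genotypes of hematopoietic stem cells (HSCs) from mouse bone marrow. All probes named for these 6 genes were taken, 11 probes on 29 spots of an Agilent array whose 41174 probes carry 27600 gene names. The set was chosen by the measured signals of these arrays, because Ccnd1 was lowest with 2 mutant alleles, so the levels and differences of the 6 genes are given as a description and without a test. Total RNA of 8 samples was read on 8 one-colour arrays, 2 of Nras+/+ (the controls), 3 of NrasG12D/+ (1 mutant allele) and 3 of NrasG12D/G12D (2 mutant alleles). All samples were labelled as strain B6. NrasG12D encodes a mutant Nras, a small GTPase, that stays bound to GTP and active, and it was expressed here from the endogenous locus. The sources used here do not give how the allele was switched on, the age and number of the animals or the surface markers used to sort the cells. Nor do they say if the samples are from different animals, so a p-value reflects just the spread among these samples, which may be technical.

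Mitogenic signals that pass through Ras and ERK induce D-type cyclins, which bind and activate Cdk4 and Cdk6. The active pair phosphorylates Rb1 and its relatives, which then release E2F factors, and E2F factors switch on genes of DNA replication. In the marrow, HSCs are mostly quiescent, and the level of this pathway bears on when they leave quiescence. The inhibitors of the INK4 family bind Cdk4 and Cdk6, and those of the CIP/KIP family bind cyclin-kinase pairs more broadly.

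The 11 probes were 60 bases long each, with 36.67% to 55% G and C. The 5 sequences shown are of genes with several probes or a single dim one, to let the probes of a gene be compared, and probes that may lie in untranslated regions are not printed. They are written 5′ to 3′ as the files give them, with positions as in the files, which state no genome build. The capitals in the Cdk4 probe, bases 42 to 50, are the bases that code for the DFG motif, a conserved magnesium-binding motif of protein kinases.
Ccnd2 brightest probe (chr6:127104788-127104847, minus strand): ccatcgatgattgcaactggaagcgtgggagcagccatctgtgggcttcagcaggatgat
Ccnd2 further probe (chr6:127114297-127114356, minus strand): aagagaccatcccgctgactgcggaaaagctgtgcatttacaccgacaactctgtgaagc
Cdk4 (chr10:126467860-126467919, plus strand): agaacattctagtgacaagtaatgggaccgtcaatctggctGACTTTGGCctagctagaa
Cdk6 probe with no array above background (chr5:3479226-3521510, plus strand): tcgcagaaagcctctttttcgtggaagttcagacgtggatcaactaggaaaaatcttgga
Rb1 further probe (chr14:71996708-71996767, minus strand): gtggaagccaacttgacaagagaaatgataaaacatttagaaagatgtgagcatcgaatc
Each of these 5 probes had at least 1 reading frame without a stop codon on its own strand. The listed position of that Cdk6 probe spans 42285 bases for 60 bases of probe, so its 2 ends lie far apart in the genome. The single Ccnd1 probe, at chr7:144739658-144739717 on the minus strand, had a stop codon in all 3 frames. Which exon or untranslated region each probe lies in was not analysed here.

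The arrays limited what could be seen of these genes. Between 26% and 42.4% of spots per array were well above background, the flag of the scanner software for a signal clearly over its local background. Levels are log2 processed signals minus each array's 75th percentile over 6576 probes well above background on all 8 arrays, called scaled levels. A level is that of 1 probe and was not set against another probe's. The 2 controls shared slide 1 with NrasG12D/+ replicates 1 and 2. NrasG12D/+ replicate 3 was on slide 2, as were all NrasG12D/G12D samples. NrasG12D/+ replicate 1 stood apart from the others, with a mean correlation across genes of 0.56 with the other arrays against 0.62 to 0.64. Its summed level of 8 mature neutrophil markers was 235, where the other arrays had 0.557 to 10.8. Of these markers 4 were above background on that array and 1 to 3 on each other array, and the sum was not split by gene. Among genes listed for HSC identity, Ly6a and Slamf1 were above background on all 8 arrays and Meis1 on 7. Kit, Mecom and Hlf were above background on 1 array each, the same NrasG12D/+ replicate 1, and Procr, Gata2 and Tek on none. In RNA of many cells, fewer cells of a type and less RNA per cell cannot be told apart.

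**Figure D1:**
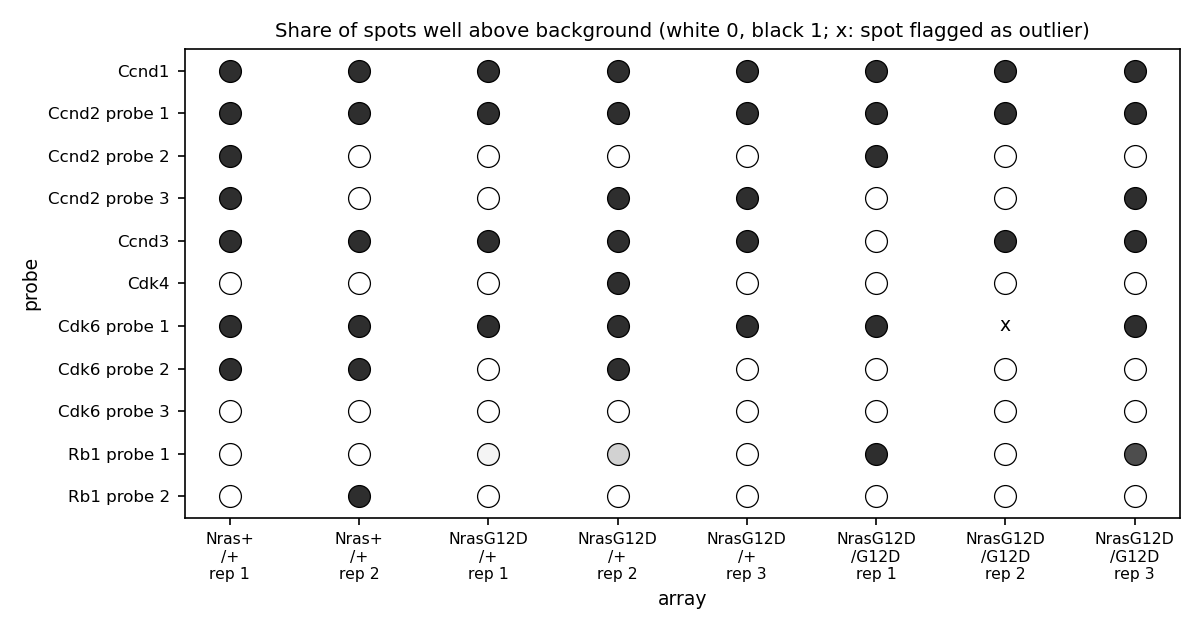
Share of each probe's spots that were well above background (shading from white, 0, to black, 1) for the 11 probes (rows) on the 8 arrays (columns), with x where the only spot was flagged as an outlier. Ccnd1 and the first Ccnd2 probe were above background on all 8 arrays, Cdk4 on 1 and Cdk6 probe 3 on none.

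Ccnd1, the D-type cyclin most directly induced by Ras and ERK signalling, had its lowest levels in NrasG12D/G12D. Its probe was printed 10 times on each array and was well above background on all 8. The geometric mean processed signals of Ccnd1 were 354 and 579 in Nras+/+, 381, 252 and 457 in NrasG12D/+, and 111, 32.2 and 107 in NrasG12D/G12D. All 3 NrasG12D/G12D arrays lay below all 5 other arrays even without scaling between arrays, and NrasG12D/G12D replicate 2 was the lowest of all. The replicate spots of Ccnd1 within an array had an SD of 0.0447 to 0.107 on the log2 scale, far less than the SD between arrays of a genotype. Outlier flags removed 1 of 10 spots on NrasG12D/G12D replicate 1 and 3 of 10 on replicate 2. Over the whole array, NrasG12D/G12D replicate 2 had the most outlier spots, 464, and the smallest share of spots well above background, 26%.

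**Figure D2:**
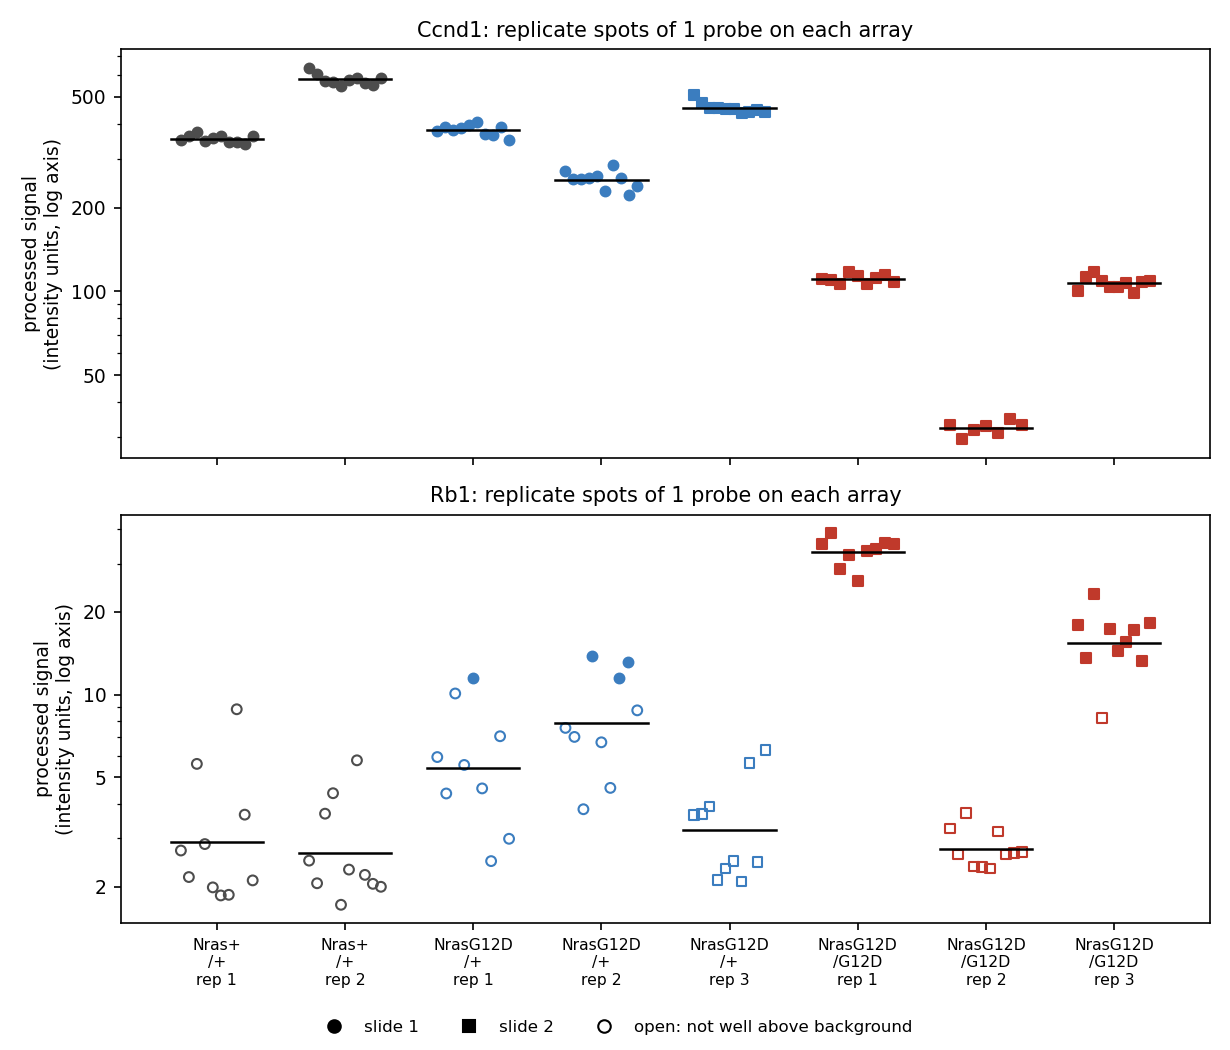
Processed signal (intensity, log axis) of every spot kept of the Ccnd1 probe and of the Rb1 probe that passed the filter on dim probes, with the geometric mean as a bar. Circles are slide 1, squares slide 2 and open symbols spots not well above background. The Ccnd1 spots of an array lie close together, and the 3 NrasG12D/G12D arrays, at 111, 32.2 and 107, lie below the other 5.

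On the scaled log2 scale Ccnd1 stood at 0.89 and 2.33 in Nras+/+, at 0.10, -0.11 and 1.83 in NrasG12D/+, and at -1.33, -2.19 and -0.77 in NrasG12D/G12D. The means were 1.61 ± 1.02 (SD, n = 2), 0.61 ± 1.07 (SD, n = 3) and -1.43 ± 0.71 (SD, n = 3). The order of the means was Nras+/+, NrasG12D/+, NrasG12D/G12D. Nras+/+ and NrasG12D/+ overlapped, since NrasG12D/+ replicate 3 was higher than Nras+/+ replicate 1, whereas NrasG12D/G12D overlapped neither.

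The log2 difference of Ccnd1 was -1.0 (SE 0.90) for NrasG12D/+ minus Nras+/+, about the size of its standard error. It was -3.04 (SE 0.90) for NrasG12D/G12D minus Nras+/+, which is 8.23-fold lower. Between the mutant genotypes it was -2.04 (SE 0.80), or 4.11-fold lower with the second mutant allele. The median of all 14966 genes tested differed too, by -0.25, -0.44 and -0.20 in the same order, and relative to it Ccnd1 stood at -0.75, -2.60 and -1.84. Without any scaling the differences were -0.36, -2.64 and -2.28. None of these values is independent of the choice of Ccnd1, and no gene of the array passed an adjusted p of 0.05 (limma, Benjamini-Hochberg) in any comparison, 0% of the genes tested in each. At an unadjusted p under 0.05 there were 713, 978 and 890 genes, and the lowest adjusted p was 0.0649, 0.0573 and 0.495.

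Slide moved with genotype, and NrasG12D/+ is the only genotype on both slides. For Ccnd1 the slide 2 array of NrasG12D/+, at 1.83, was higher than both of its slide 1 arrays, at 0.10 and -0.11. Within slide 1, NrasG12D/+ minus Nras+/+ was therefore larger in size, -1.61, and within slide 2, NrasG12D/G12D minus NrasG12D/+ was -3.26, with 1 NrasG12D/+ array there. With the slide as a block the 3 differences were -1.61, -4.88 and -3.26. Since the controls and NrasG12D/G12D never share a slide, their blocked value rests on the NrasG12D/+ arrays. The direction of Ccnd1 was the same on each slide that holds a pair of genotypes. Single arrays moved its sizes: NrasG12D/+ minus Nras+/+ was -0.28 without Nras+/+ replicate 2, -1.72 without Nras+/+ replicate 1, -0.64 without NrasG12D/+ replicate 2 and -1.61 without NrasG12D/+ replicate 3.

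**Figure D3:**
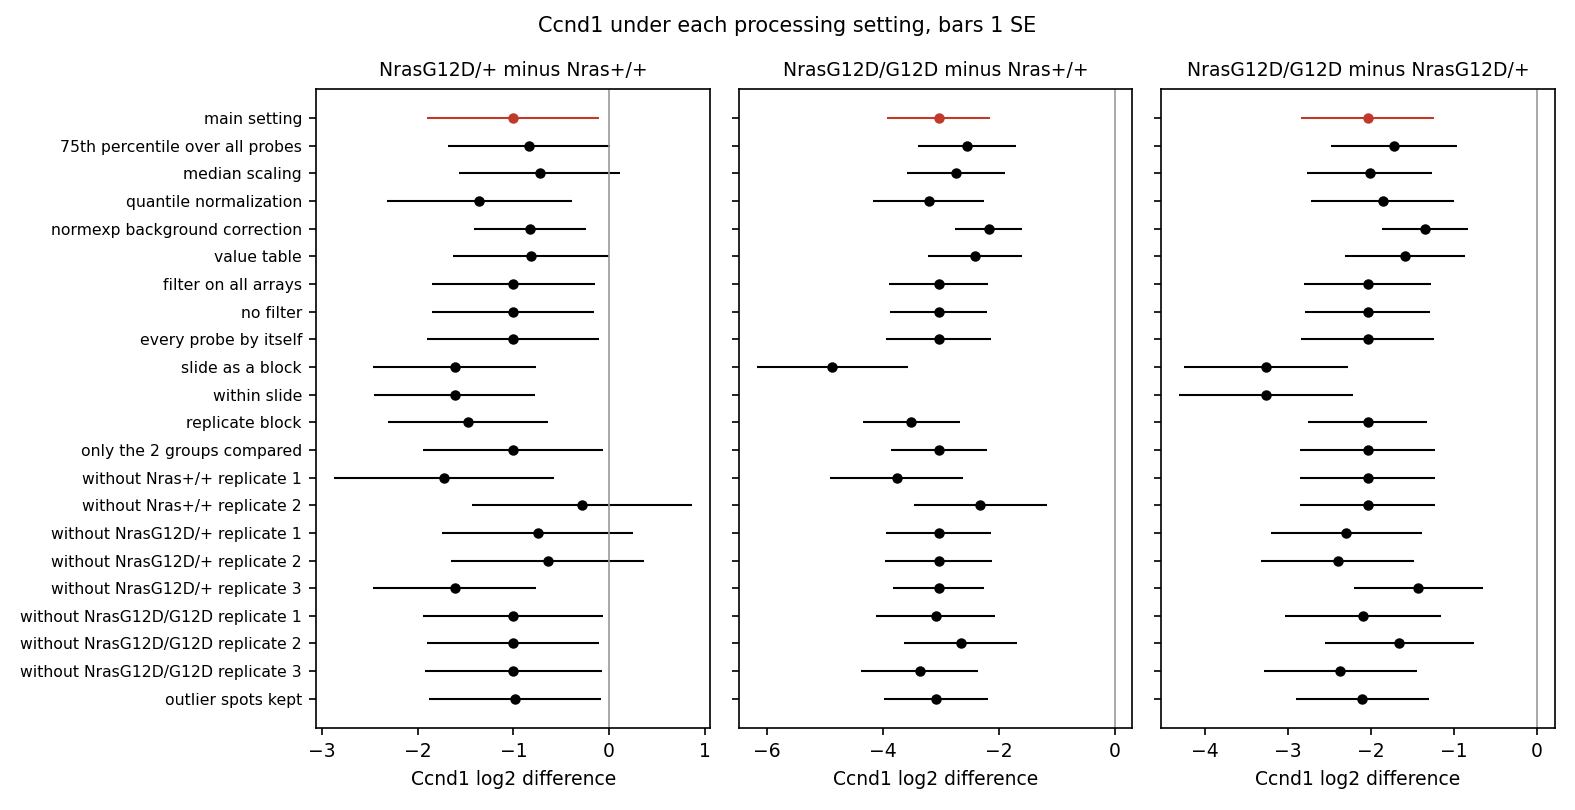
Log2 difference of Ccnd1 (x axis, bars 1 SE) in the 3 comparisons under the main setting (red) and each alternative (black). All points lie below 0, from -1.72 to -0.28 for NrasG12D/+ minus Nras+/+, from -4.88 to -2.18 for NrasG12D/G12D minus Nras+/+ and from -3.26 to -1.35 between the mutant genotypes.

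Markers of dividing cells were mostly dim on these arrays. Of 8 proliferation genes, Ccnb1, Aurkb, Bub1 and Cdk1 were above background on no array, and 2 to 4 of the 8 were above background per array. Their summed levels, on the linear scale relative to each array's 75th percentile, were 2.32 and 3.27 in Nras+/+, 4.61, 12.6 and 4.03 in NrasG12D/+, and 1.86, 2.24 and 3.04 in NrasG12D/G12D. The NrasG12D/G12D sums lay below all NrasG12D/+ sums, as the Ccnd1 levels did, and overlapped those of Nras+/+. Unlike Ccnd1, whose mean was lower in NrasG12D/+ than in Nras+/+, all NrasG12D/+ sums lay above both Nras+/+ sums. The T and NK cell marker sums were 2.44 and 2.78 in Nras+/+, 7.09, 0.773 and 1.61 in NrasG12D/+, and 7.12, 11.8 and 2.13 in NrasG12D/G12D. Their part in the Ccnd1 difference was not tested.

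Ccnd2, the D-type cyclin that many blood cells use beside Ccnd3, did not share the Ccnd1 pattern on its brightest probe. That probe was above background on all 8 arrays, with processed signals of 123 and 45 in Nras+/+, 292, 101 and 118 in NrasG12D/+, and 142, 252 and 78.5 in NrasG12D/G12D. Its scaled levels were -0.63 and -1.35, then -0.28, -1.42 and -0.12, then -0.97, 0.78 and -1.22. Every pair of genotypes overlapped, and the highest level was that of NrasG12D/G12D replicate 2, the array on which Ccnd1 was lowest.

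The log2 differences of the brightest Ccnd2 probe were 0.39 (SE 0.86) for NrasG12D/+ minus Nras+/+, 0.52 (SE 0.86) for NrasG12D/G12D minus Nras+/+ and 0.14 (SE 0.77) between the mutant genotypes, all within 1 standard error of 0. Leaving out 1 array at a time gave 0.028 to 0.80, -0.10 to 0.90 and -0.49 to 0.51. Without NrasG12D/G12D replicate 2 the second was -0.10 and the last -0.49, and with the slide as a block they were -0.21 and -0.35. The further Ccnd2 probe shown above was over background on 4 arrays, Nras+/+ replicate 1, NrasG12D/+ replicates 2 and 3 and NrasG12D/G12D replicate 3. Its differences were -0.71 (SE 1.05), -0.96 (SE 1.05) and -0.25 (SE 0.94). The remaining Ccnd2 probe, at chr6:127095295-127095354, was above background only on Nras+/+ replicate 1, with a signal of 122, and on NrasG12D/G12D replicate 1, with 65.8, while the other 6 arrays had 2.21 to 11.9. All 3 NrasG12D/+ arrays were dim, and the other genotypes had 1 bright array each, so no fold is given. So the 3 Ccnd2 probes disagreed in sign: against Nras+/+, the brightest was higher in both mutant genotypes and the others were lower in both.

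Ccnd3, the D-type cyclin of lymphoid and erythroid precursors among others, was dim. Its single probe, at chr17:47062509-47062568, had signals of 32.7 and 20.7 in Nras+/+, 84.3, 16.3 and 41.2 in NrasG12D/+, and 10.3, 29.5 and 18.9 in NrasG12D/G12D, the 10.3 being not well above background. The scaled levels were -2.55 and -2.47 in Nras+/+, -2.07, -4.06 and -1.64 in NrasG12D/+, and -4.75, -2.32 and -3.27 in NrasG12D/G12D. Every pair of genotypes overlapped, and the SD was 1.29 and 1.23 in the mutant genotypes against 0.051 between the 2 controls.

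The log2 difference of Ccnd3 was -0.08 (SE 1.0) for NrasG12D/+ minus Nras+/+, a sign that turned in 5 of 20 alternatives: scaling over all probes (0.09), median scaling (0.20), quantile normalization (0.04), the value table (0.10) and without NrasG12D/+ replicate 2 (0.66). It was -0.94 (SE 1.0) for NrasG12D/G12D minus Nras+/+ and -0.86 (SE 0.89) between the mutant genotypes. With the slide as a block they were -2.37 and -1.81, but with normexp background correction -0.32 and -0.17. They rested on NrasG12D/G12D replicate 1, the array not above background, without which they were -0.29 and -0.21.

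**Figure D4:**
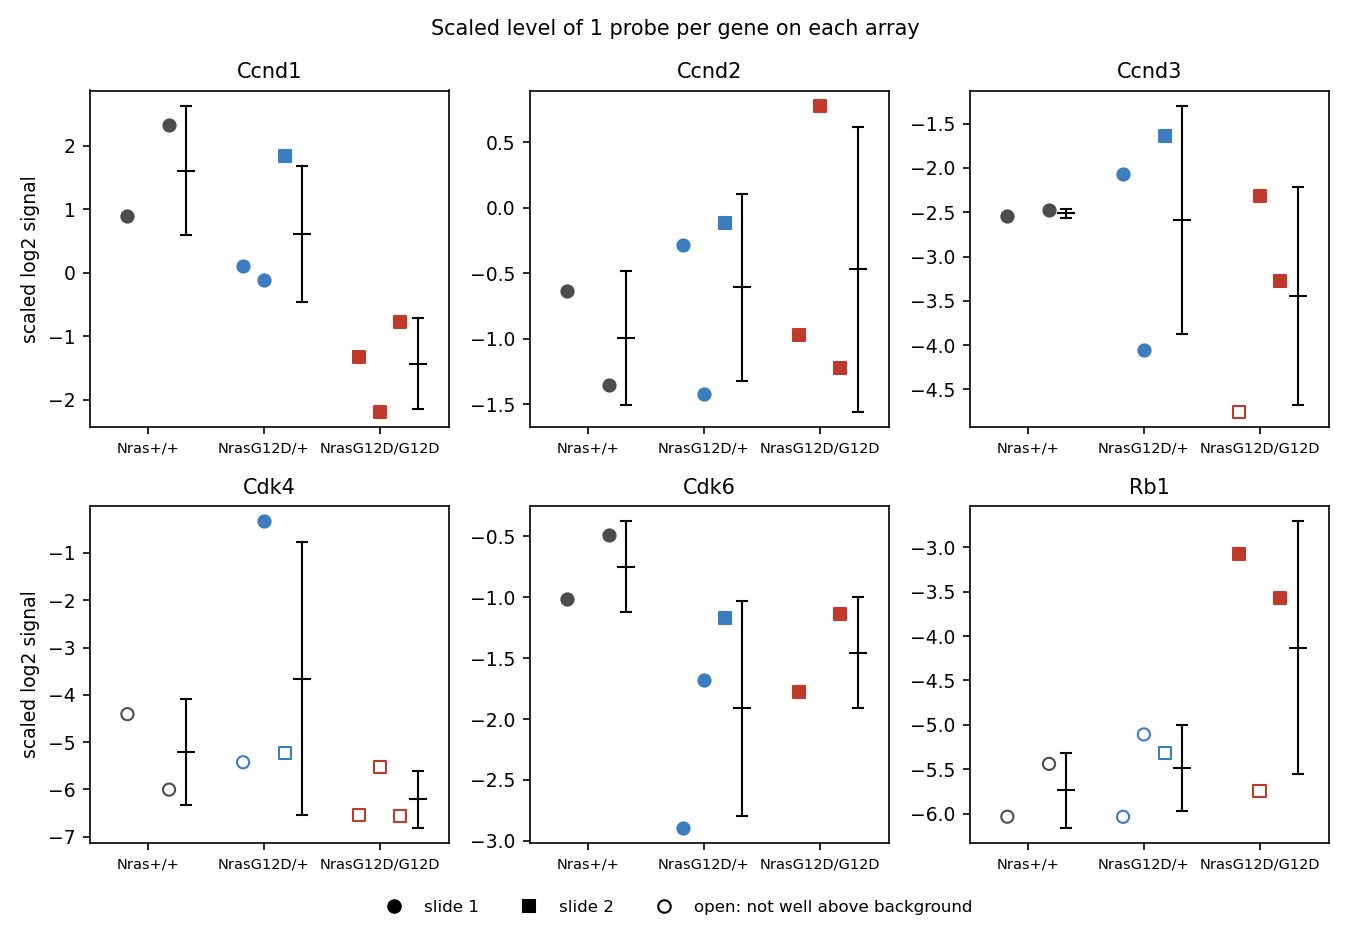
Scaled log2 level of 1 probe per gene on each array, with the mean and SD of each genotype beside the points. Circles are slide 1, squares slide 2 and open symbols arrays on which the probe was not well above background. The probe is the brightest that passed the filter on dim probes, or the only one for Cdk4. Only for Ccnd1 do the NrasG12D/G12D arrays lie below those of both other genotypes.

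Cdk4, the cyclin D kinase found in most dividing cells, was measured on 1 array only. Its probe had a signal of 215 on NrasG12D/+ replicate 2 and was well above background there, while the signals were 8.99 and 1.79 in Nras+/+, 8.25 and 3.42 on the other NrasG12D/+ arrays, and 2.97, 3.2 and 1.93 in NrasG12D/G12D. Cdk4 was therefore left out of the fit, and 5 of the 6 genes entered it. With the other NrasG12D/+ arrays not above background either, no fold is given.

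Cdk6, the cyclin D kinase with a particular part in blood stem and progenitor cells, had lower levels in NrasG12D/+ than in the controls on its brightest probe. That probe, at chr5:3527675-3527734, gave signals of 94.5 and 82 in Nras+/+, 47.8, 84.8 and 56.8 in NrasG12D/+, and 81.1 and 83.2 in NrasG12D/G12D replicates 1 and 3. Its only spot on NrasG12D/G12D replicate 2 was flagged as an outlier, and the fit dropped that value. The scaled levels were -1.02 and -0.49 in Nras+/+, -2.89, -1.68 and -1.17 in NrasG12D/+, and -1.78 and -1.14 in NrasG12D/G12D. On this scale all mutant arrays with a value lay below both controls, and the mutant genotypes overlapped. For NrasG12D/G12D this rests on replicates 1 and 3, with the flagged spot dropped. Without scaling the mutant arrays and the controls overlapped, as the signals of 84.8 and 82 show.

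The log2 difference of Cdk6 was -1.16 (SE 0.81) for NrasG12D/+ minus Nras+/+, or -0.91 relative to all genes. Without NrasG12D/+ replicate 1, the array that stood apart, it was -0.67, or -0.47 relative to all genes. It was -0.70 (SE 0.88) for NrasG12D/G12D minus Nras+/+ (-0.38 without NrasG12D/G12D replicate 1), or -0.26 relative to all genes. In the value table, which keeps the flagged spot, it was 0.37, or 0.16 relative to all genes. That table is scaled to the array median, and the median of all genes there was 0.21. With the outlier spot kept, that difference was -0.31. Between the mutant genotypes the Cdk6 difference was 0.46 (SE 0.81), but -0.28 within slide 2 and 1.35 in the value table, flagged spot included. The further Cdk6 probe, at chr5:3535293-3535352, was above background on both Nras+/+ arrays, with signals of 12.2 and 15.5, and on NrasG12D/+ replicate 2 with 8.9. Its differences were -1.37 (SE 0.79), -1.77 (SE 0.79) and -0.40 (SE 0.70), and since no NrasG12D/G12D array was well above background, Nras+/+ was at least 1.71-fold over NrasG12D/G12D. The Cdk6 probe whose sequence is shown above was over background on no array and gives no direction. Against Nras+/+, the brightest and the further Cdk6 probe thus had the same sign in both mutant genotypes under the main scaling.

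Rb1, the pocket protein that holds E2F factors until it is phosphorylated, was near background except on 2 arrays. The Rb1 probe that entered the fit, at chr14:71929755-71929814, was printed 10 times per array. The geometric mean signals were 2.92 and 2.65 in Nras+/+, 5.41, 7.86 and 3.22 in NrasG12D/+, and 33, 2.75 and 15.4 in NrasG12D/G12D. NrasG12D/G12D replicate 1 had 9 of 9 spots well above background and replicate 3 had 9 of 10, whereas replicate 2 had 0 of 10 and lay with the controls. The Rb1 probe passed the filter on dim probes through those 2 arrays alone, so its higher mean in NrasG12D/G12D follows in part from the filter.

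The log2 difference of Rb1 was 0.25 (SE 0.92) for NrasG12D/+ minus Nras+/+, 1.61 (SE 0.92) for NrasG12D/G12D minus Nras+/+ and 1.36 (SE 0.82) between the mutant genotypes. Neither Nras+/+ nor NrasG12D/+ had an array well above background for it. NrasG12D/G12D replicate 2 was not above background either, so no fold is given. With normexp background correction the difference from Nras+/+ was 0.04. Without NrasG12D/G12D replicate 2 the last 2 differences were 2.41 and 2.16, and without replicate 1 the last was 0.83. The further Rb1 probe shown above was over background only on Nras+/+ replicate 2, with a signal of 15.1. Its mean level over the 8 arrays was the higher of the pair, so it is the probe kept without the filter, and its means differed by -0.54, -0.89 and -0.35, the other direction in all 3 comparisons. The genotypes overlapped on both Rb1 probes.

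**Figure D5:**
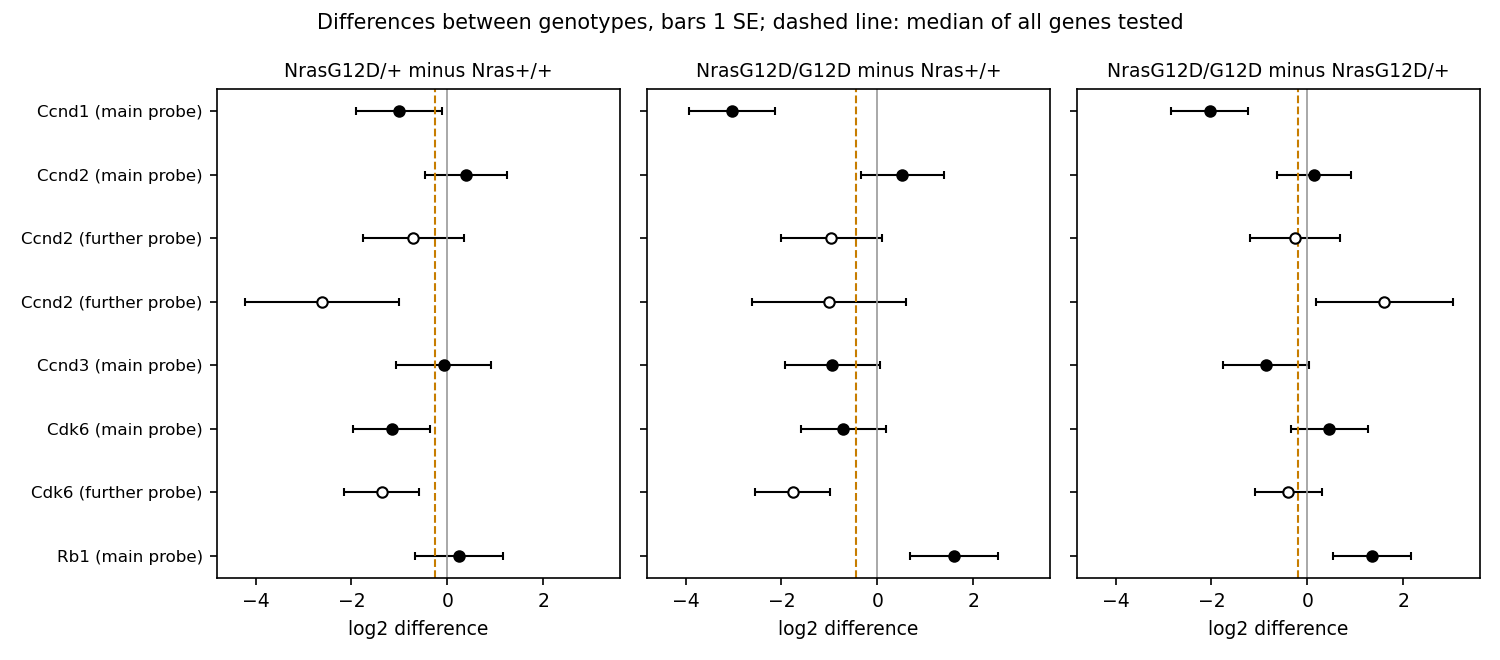
Log2 difference (x axis, bars 1 SE) of each probe above background on at least 2 arrays, for the probe of a gene in the fit (filled) and further probes (open) in the 3 comparisons. The dashed line is the median of all genes tested, at -0.25, -0.44 and -0.20. Ccnd1 lies at -1.0, -3.04 and -2.04 and Rb1 at 0.25, 1.61 and 1.36.

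Counted by groups that do not overlap, 1 of the 5 genes in the fit (Cdk6) was lower in NrasG12D/+ than in Nras+/+, where 16% of all genes tested were lower in this way, and 0 of 5 were higher, where 8.96% of all genes were. In NrasG12D/G12D against Nras+/+, 2 of 5 (Ccnd1 and Cdk6) were lower, beside 22.8% of all genes, and 0 of 5 were higher, beside 6.04%. For Cdk6 this holds on 2 arrays, with the flagged spot of replicate 2 dropped. In NrasG12D/G12D against NrasG12D/+, 1 of 5 (Ccnd1) was lower, beside 8.71% of all genes, and 0 of 5 were higher, beside 2.79%. The choice of the genes used these same signals, so nothing is read from these counts. The comparisons with Nras+/+ share the 2 control arrays.

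The rest of the pathway was taken from a list of 46 genes in 6 roles, all on the array, of which 29 were bright enough to be tested. None passed in limma in any comparison (0 of 29 each, lowest adjusted p 0.816, 0.722 and 0.803), and 1, 2 and 0 had an unadjusted p under 0.05. Their median log2 difference was -0.06 for NrasG12D/+ minus Nras+/+, -0.56 for NrasG12D/G12D minus Nras+/+ and -0.50 between the mutant genotypes, beside -0.25, -0.44 and -0.20 for all genes. A higher mean was found for 14, 11 and 10 of the 29, beside 6288, 5322 and 6299 of all 14966 genes. The groups did not overlap for 3 lower and 2 higher of 29 genes in NrasG12D/+ against Nras+/+, beside 16% and 8.96% of all genes. The counts were 6 lower and 2 higher in NrasG12D/G12D against Nras+/+, beside 22.8% and 6.04%, and 3 lower and 1 higher between the mutant genotypes, beside 8.71% and 2.79%. These shares are near the background. All 17 remaining genes were too dim to be tested, among them Cdkn2a, Rbl1, Rbl2, Cdk2, E2f2, E2f3 and E2f4.

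Among the inhibitors, 6 of 7 genes were tested and 0 passed. Cdkn1b, which encodes the CIP/KIP inhibitor p27, had scaled levels of -0.29 and -1.11 in Nras+/+, 1.62, 4.05 and 4.09 in NrasG12D/+, and 4.05, 7.09 and -0.17 in NrasG12D/G12D. Both controls lay below all 6 mutant arrays, with NrasG12D/G12D replicate 3 just above them. Its log2 difference was 4.36 (SE 1.82, limma adjusted p = 0.722) for NrasG12D/G12D minus Nras+/+, and 2.64 without NrasG12D/G12D replicate 2. Other Cdkn1b probes were above background on 1 array and on none. Cdkn2b, which encodes the INK4 inhibitor p15, stood at -1.78 and -2.60 in Nras+/+, -3.86, -3.65 and -2.50 in NrasG12D/+, and -4.33, -3.18 and -4.26 in NrasG12D/G12D. The last 3 lay below both controls, a difference of -1.74 (SE 0.78, limma adjusted p = 0.722).

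Of the genes that activate or fold the kinases, 4 of 5 were tested and 0 passed. All 4 had a lower mean in NrasG12D/G12D than in each other genotype. In each of these comparisons taken alone, most genes of the array had a lower mean too. Of all 14966 genes, only 5322 had a higher mean than in Nras+/+ and 6299 than in NrasG12D/+. The median of the 4 was -1.03 against Nras+/+ and -0.93 against NrasG12D/+, beside -0.44 and -0.20 for all genes. Cdc37, the co-chaperone that helps Cdk4 fold, had a difference of -1.63 (SE 0.84, limma adjusted p = 0.803) between the mutant genotypes, and a further Cdc37 probe, above background on all 8 arrays, gave -1.36. The difference of the fitted probe was -0.91 without NrasG12D/+ replicate 2 and -0.70 within slide 2. Cdk7, the catalytic subunit of the kinase that activates cyclin-dependent kinases, had -2.08 (SE 1.27, limma adjusted p = 0.725) for NrasG12D/G12D minus Nras+/+. Cdk7 was dim in all of NrasG12D/G12D and above background on 1 of 2 control arrays, so no fold is given. The Cdk7 levels of the controls were -1.87 and -6.07, and without Nras+/+ replicate 1 the difference was 0.022.

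Genes that destroy or export D-type cyclins were tested for 6 of 8, and 0 passed. Fbxo31, an F-box protein that targets cyclin D1 after DNA damage, had a difference of -1.24 (SE 0.68, limma adjusted p = 0.803) between the mutant genotypes, which did not overlap. Ambra1, a substrate receptor that brings D-type cyclins to a ubiquitin ligase, had -1.62 (SE 0.96, limma adjusted p = 0.822) in the same comparison. The NrasG12D/+ levels of Ambra1 were 0.39, -3.40 and -1.44, and those of NrasG12D/G12D were -2.61, -3.77 and -2.92, so these groups overlapped. Without NrasG12D/+ replicate 1 the difference was -0.68, and without replicate 2 it was -2.57.

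Of the Rb1 relatives and the E2F and DP factors, 3 of 10 were tested and 0 passed. E2f1, an activating E2F factor released by Rb1, stood at -1.39 and 0.47 in Nras+/+, -1.95, -2.00 and -0.58 in NrasG12D/+, and -2.83, -1.61 and -2.02 in NrasG12D/G12D. The NrasG12D/G12D arrays lay below both controls, a difference of -1.69 (SE 0.87, limma adjusted p = 0.722) that was -0.76 without Nras+/+ replicate 2 and -2.62 without replicate 1. E2f5, a repressive E2F factor, had a difference of 1.49 (SE 0.87, limma adjusted p = 0.816) for NrasG12D/+ minus Nras+/+, with 1 of 2 control arrays above background, and 0.96 without NrasG12D/+ replicate 3.

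Cyclin E and cyclin A follow cyclin D, paired with Cdk2. Of these 4 genes 3 were tested and 0 passed, with Ccne1 above background on 7 arrays. Ccna2 was above background on 3 arrays, 1 per genotype, with a difference of -1.62 (SE 1.23, limma adjusted p = 0.816) for NrasG12D/+ minus Nras+/+, which was -0.69 without NrasG12D/+ replicate 2 and -2.70 without replicate 3. Ccne2 was above background on 2 arrays, none of them Nras+/+, with 0.74 (SE 0.97, limma adjusted p = 0.833) for NrasG12D/G12D minus Nras+/+. That sign turned with normexp background correction and without NrasG12D/G12D replicate 3.

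Of 12 E2F target genes of S phase, 7 were tested and 0 passed. For NrasG12D/+ minus Nras+/+, 5 of the 7 had a higher mean, with a median of 0.37 beside -0.25 for all genes. A higher mean was found for 3 of 7 in each other comparison. The median was -0.43 for NrasG12D/G12D minus Nras+/+ and -0.80 between the mutant genotypes, beside -0.44 and -0.20 for all genes. Pcna, the sliding clamp of DNA polymerases, was above background on both Nras+/+ arrays and on none of NrasG12D/+, where it was at least 6.18-fold lower. Its scaled levels were -3.39 and -0.61 in Nras+/+, -5.35, -5.23 and -4.11 in NrasG12D/+, and -4.39, -5.60 and -4.57 in NrasG12D/G12D, and the difference was -2.90 (SE 0.96, limma adjusted p = 0.816) for NrasG12D/+ minus Nras+/+. All 6 mutant arrays lay below both controls. The bound and the difference rest largely on Nras+/+ replicate 2, without which the difference was -1.51. Mcm5, a subunit of the replicative helicase, had a difference of -4.86 (SE 2.46, limma adjusted p = 0.803) between the mutant genotypes. Its level was 6.96 on NrasG12D/+ replicate 1, the array that stood apart, against -4.19 and -2.46 on the other NrasG12D/+ arrays and -6.21, -4.62 and -3.43 in NrasG12D/G12D, and without that array the difference was -1.43.

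The genes whose scaled levels were most like those of Ccnd1 over the 8 arrays were found among 14710 genes with a value on every array. The highest Pearson correlation coefficients were 0.991 for Zg16, a secreted lectin, 0.989 for Cd47, a surface signal against phagocytosis, 0.988 for Asxl2, a chromatin regulator, 0.987 for Zc3h13, a component of the RNA methylation machinery, and 0.981 for Rab5c, a GTPase of early endosomes. The points share the 8 arrays and their scaling, and the 5 genes are the extreme of all comparisons, so the coefficients are a description. Cd47 stood at -0.65 and 0.80 in Nras+/+, -1.59, -1.91 and -0.19 in NrasG12D/+, and -3.63, -4.64 and -3.32 in NrasG12D/G12D. As for Ccnd1, NrasG12D/+ replicate 3 was the highest mutant array and overlapped the controls, and NrasG12D/G12D replicate 2 was the lowest of all. This shared order largely follows from the choice of Cd47 by correlation, and Cd47 was above background on 7 arrays.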

How the data were processed

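Per the file headers, the deposited files of the 8 arrays were written by Agilent Feature Extraction 10.5.1.1, a tool the submitters' processing notes name too. Their processed signal is an intensity, already background-subtracted and detrended by the authors' software, per the file headers. The deposited value table is a ratio, the processed signal over each array's median on a linear scale (largest relative deviation 1.7e-06, column medians 1). Each array holds 45018 spots, 1639 of them controls, and 0 were saturated. Spots flagged as outliers were set to missing, 259 to 464 on each NrasG12D/G12D array and 120 to 170 on each other array. The spots of a probe were averaged as log2. Each array was scaled to its 75th percentile over the 6576 probes that passed the background flag on every array. A probe was well above background where over 0.5 of its spots were. Probes above background on at least 2 arrays, with at least 2 values per genotype, were kept, and of these the brightest per gene by mean level (14966 genes) was fitted with limma 3.58.1 (lmFit, eBayes, 1 spread for 3 genotypes, two-sided) in R 4.3.3. Adjusted p-values (Benjamini-Hochberg, all genes) were called under 0.05. The procedure was tested on simulated data with a much smaller spread than that of these arrays. That test does not show what size of difference could be found here. Precision is limited by the number of arrays, and the median SE of a log2 difference over all genes was 0.96, 0.96 and 0.86.

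A probe not above background on any array of a genotype gives "at least N-fold": the brighter genotype's mean against the dimmer one's, in which each array counts with its own signal or with the lowest signal well above background, whichever is higher. This fold is given only where every array of the brighter genotype was well above background. Probes were matched by accession or symbol to a RefSeq table, and all 11 probes matched. Every probe of the 6 genes is described. Of the pathway list, the rule named genes past the threshold and, per role, up to 2 with the lowest unadjusted p in any comparison, and the 5 genes most correlated with Ccnd1. The members and the lists were chosen with earlier results of these data known. Alternatives were other scalings, normexp background correction (offset 50), the value table, other filters, each probe by itself, slide and replicate blocks, values within a slide, only the groups compared, leaving out each array and, added after seeing the data, outlier spots kept. The value table keeps the outlier spots too. Protein sequences were not used here. One gene of the HSC identity list is not reported here.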

Additional observations from a re-analysis of the deposited data

How the results depend on the processing

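Ccnd1 kept its direction in all 21 alternatives for NrasG12D/+ minus Nras+/+, all 20 for NrasG12D/G12D minus Nras+/+ and all 21 between the mutant genotypes. Some of these could not change the difference. With a single Ccnd1 probe, other filters left it the same, as did leaving out an array of a genotype not compared. Ccnd1 was also chosen from these same signals, so the shared direction is a description. Leaving out 1 array at a time gave -1.72 to -0.28, -3.76 to -2.32 and -2.40 to -1.43. With the slide as a block the differences of NrasG12D/G12D from Nras+/+ and from NrasG12D/+ moved by more than the replicate spread, to -4.88 and -3.26. Within slide 2, which holds NrasG12D/+ replicate 3 as its only NrasG12D/+ array, the latter was -3.26 too. Why Ccnd1 was higher on that array than on the other NrasG12D/+ arrays was not tested. Samples with the same replicate number were little alike, with a mean correlation of 0.01 for 7 same-numbered pairs and -0.01 for 14 others. The others are no independent reference, because the control arrays mirror each other in these values. Whether the samples were paired is not settled by this. With the replicate block Ccnd1 stood at -1.47, -3.51 and -2.04, and the pathway list again had 0 calls. The pathway list had 0 calls in all 59 alternatives, and the most calls over all genes was 10, without Nras+/+ replicate 2. Of 215 alternatives for the named pathway genes, 3 turned the sign: Ccne2 with normexp (-0.11), and 1 array left out for Cdk7 (Nras+/+ replicate 1, range -4.18 to 0.022) and Ccne2 (NrasG12D/G12D replicate 3, range -0.10 to 1.21). For the 4 other genes fitted, 229 of 245 alternatives stayed within the replicate spread and 16 did not. Signal over background limits Cdk4, Rb1 and the further Ccnd2 and Cdk6 probes most.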
